A study of Mus musculus with 2 samples.

Results

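The potassium channel genes of the mouse heart are described here: the 94 protein-coding genes whose symbol starts with Kcn, of 21901 protein-coding genes and 55536 genes in all. The members comprise 40 genes of voltage-gated channels, 15 of inward rectifiers, 14 of two-pore channels, 8 of calcium-activated channels and their relatives, and 17 accessory subunits or regulators. The classes were assigned from the gene symbols and textbook knowledge, and members were taken by symbol and not by measured value. Earlier results of these data were, however, known when the members and gene lists were chosen. Total RNA came from the hearts of male B6CASTF1/J mice (an F1 hybrid strain) aged 25 days, with 300 ng of RNA per library, and 1 library was made from each of 2 hearts. The labels call the libraries biological replicates 1 and 2 and give the animals different numbers in a tissue bank but the same donor identifier. No treatment, mutation or second group is named, so the values describe 1 group of 2 hearts and no group was tested against another. The chambers sampled are not stated.

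Potassium channels let potassium ions leave the heart muscle cell, which sets its resting potential and ends each action potential. Voltage-gated channels open during the action potential, inward rectifiers hold the resting potential or respond to G proteins or to falling ATP, two-pore channels carry a background leak, and calcium-activated channels open as internal calcium rises. In the mouse ventricle, repolarisation is known to rest mainly on fast transient outward and slowly inactivating delayed rectifier currents, while in larger mammals the rapid and slow delayed rectifiers carry more of it.

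Replicates 1 and 2 held 38253821 and 40655101 estimated counts over all genes, of which 41552 and 46304 fell on the 94 members. The limit of detection is 3 counts, which is what a count of 0 allows, and this equals 0.0784 and 0.0738 CPM (counts scaled to a common library total). All 8 heart muscle markers examined, such as Myh6 and Tnnt2, were at 1 TPM or more in both hearts. TPM is the deposited abundance, a level per transcript length scaled to a common total, so it can be compared between genes. Between hearts it also moves with what else fills that total, so the ratios between hearts below use scaled counts. The 4 atrial markers (Nppa, Myl4, Myl7 and Sln) summed to 1667 and 1564 TPM, and the 3 ventricular markers (Myl2, Irx4 and Hey2) to 5755 and 6485. Of the 6 skeletal muscle markers, 4 were at 1 TPM or more in both hearts and the list summed to 1748 and 2036 TPM, most of it from Ckm (1653 and 1806) and Acta1 (93.0 and 227.0), which heart muscle also expresses. The skeletal fast myosin genes Myh1 and Myh4 were at 0.01 TPM or less. Markers of some other cells were lower in replicate 2: the 5 red cell markers summed to 46562 and 23411 TPM, the 4 adipocyte markers to 213.6 and 30.1, the 4 platelet markers to 34.3 and 20.7, and the 7 neuron and Schwann cell markers to 11.3 and 4.48. No red cell or adipocyte marker was at 0 in either heart. The 6 macrophage markers summed to 139.1 and 96.3 TPM, a difference that came from Lyz2 (83.1 and 42.4), while their medians were 15.1 and 15.4.

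The pore-forming members share the selectivity filter, a short loop in which a glycine, an aromatic residue and a glycine line the pore and pick potassium over sodium. The coding bases around it are shown for 7 pore-forming members that the results turn on, because this is what the otherwise different classes have in common. Each sequence is 27 bases of the coding strand, 5′ to 3′, with the codons of glycine, tyrosine or phenylalanine, and glycine in capitals. They were read from the GENCODE M21 transcripts (mm10 assembly, the C57BL/6J reference and not the alleles of these F1 mice).
Kcnd2, Kv4.2, chr6:21217400-21217413 and chr6:21714135-21714147, plus strand: atgacaacactgGGGTATGGCgacatg
Kcnh2, ERG1, chr5:24325549-24325575, minus strand: ctcaccagcgtgGGCTTTGGCaatgtc
Kcnj2, Kir2.1, chr11:111072201-111072227, plus strand: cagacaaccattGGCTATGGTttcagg
Kcnj3, Kir3.1, chr2:55437621-55437647, plus strand: gaggccaccatcGGCTATGGCtaccgc
Kcnj5, Kir3.4, chr9:32322553-32322579, minus strand: gaaacaaccattGGGTATGGCttcaga
Kcnj11, Kir6.2, chr7:46099490-46099516, minus strand: caggtgaccattGGTTTCGGCgggcgc
Kcnk3, TASK-1, first pore loop, chr5:30588587-30588599 and chr5:30621891-30621904, plus strand: atcaccaccatcGGCTATGGTcatgcg
Kcnk3, TASK-1, second pore loop, chr5:30622196-30622222, plus strand: ctcaccaccatcGGCTTCGGCgactat
The middle codon was one for tyrosine in 5 of these 8 sequences and for phenylalanine in Kcnh2, Kcnj11 and the second loop of Kcnk3. An intron lay within the 27 bases, after base 14, in Kcnd2 and, after base 13, in the first loop of Kcnk3. Kcnj2 and Kcnj5, inward rectifiers of different subfamilies, shared 22 of 27 bases, more than the 19 of 27 shared by Kcnj3 and Kcnj5, whose proteins assemble together.

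A search of the longest coding sequence of each protein-coding gene, translated, for threonine or serine, any residue, glycine, then tyrosine, phenylalanine or leucine, and glycine found this signature in 77 of 77 pore-forming members and in none of the 17 accessory members, against 5.35% of all 21901 protein-coding genes. All 14 two-pore members held 2 copies, which is what gives the class its name. Of the other pore-forming members, 61 held 1 copy and 2 (Kcnh2 and Kcna6) held 2. The search had been widened after a narrower form, with threonine first and without leucine, was found in 66 of the 77 pore-forming members and in 1.05% of genes. A match is a run of residues and not a measured filter: the additional copy in Kcnh2 reads glycine, leucine, glycine and lies upstream of the filter shown.

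In both hearts, 21 of the 94 members were at 1 TPM or more, namely 10 voltage-gated, 6 inward rectifier, 1 two-pore, 2 calcium-activated and 2 accessory members. Of all protein-coding genes, 49.8% reached that level, a larger share than the 21 of 94. The median member had 0.113 TPM, against 1.11 TPM for the median protein-coding gene. Of the other members, 2 (Kcnab1 and Kcnv2) reached 1 TPM in replicate 1 only. A further 71 stayed under 1 TPM in both, comprising 52 with a count in both hearts, 8 with a count in 1 heart and 11 with none. Those 11 were the voltage-gated members Kcna10, Kcnh4, Kcnh5 and Kcnv1, the inward rectifiers Kcnj1 and Kcnj6, the two-pore members Kcnk7, Kcnk15, Kcnk16 and Kcnk18, and the accessory gene Kcne2. In the second quantification 9 of the 11 were again at 0, while Kcnj1 (0.0116 and 0.0226 TPM) and Kcnj6 (0.0326 and 0.0473) had low values in both hearts. In bulk RNA, a low level from few cells of a type and a low level per cell cannot be told apart.

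A small number of genes held most of the channel RNA. The 3 highest members (Kcnk3, Kcnip2 and Kcng2) took 51.0% ± 0.396 (SD, n = 2) of the summed TPM of the family, and the 10 highest took 83.4% ± 0.268. The members outside the 21 together took 3.46%. By class, the voltage-gated members took 29.3% ± 0.354, the inward rectifiers 24.7% ± 0.271, the accessory members 22.4% ± 0.909, the two-pore members 21.2% ± 0.845 and the calcium-activated members 2.44% ± 0.0194. The accessory class (23.06% and 21.78% in replicates 1 and 2) lay well above the two-pore class (20.56% and 21.75%) in replicate 1 and level with it in replicate 2.

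**Figure D1:**
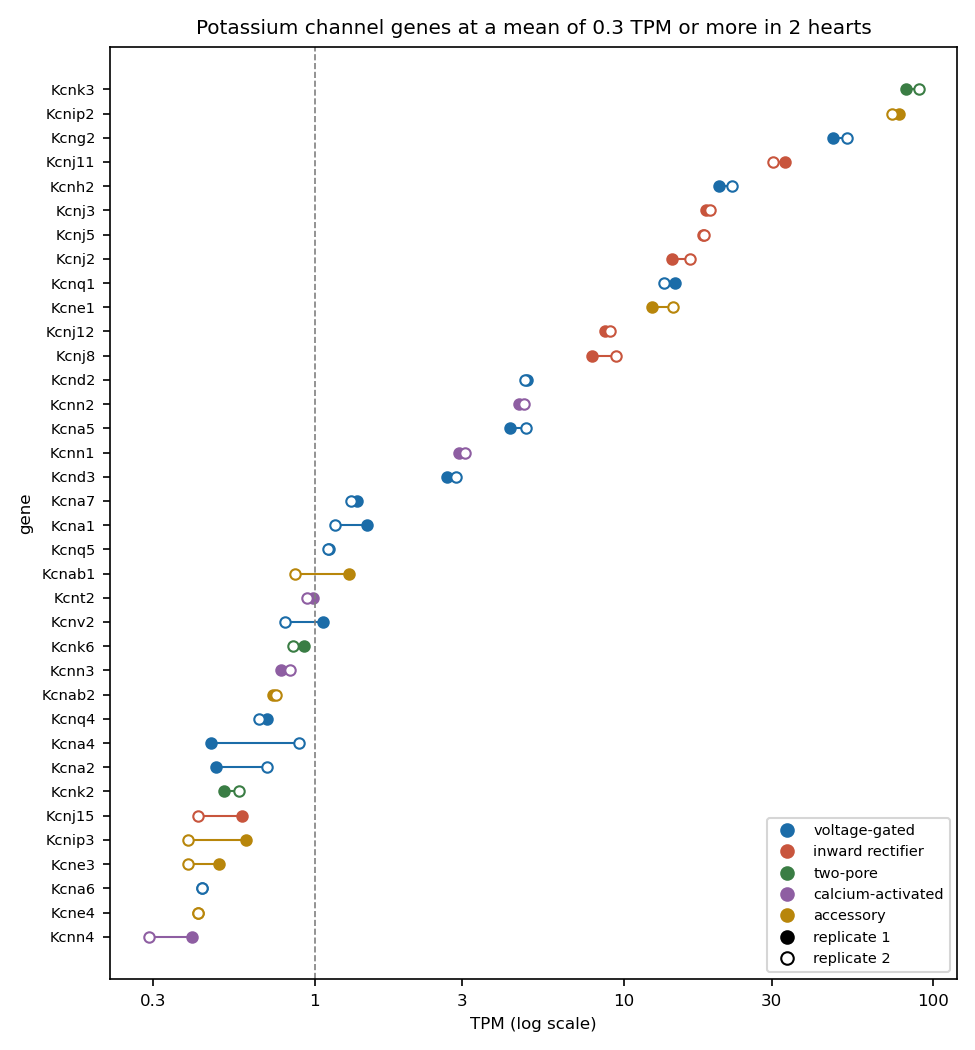
Level of the members reported with a mean of 0.3 TPM or more, as TPM on a log axis, with filled points for replicate 1 and open points for replicate 2, coloured by class. The dashed line marks 1 TPM. Kcnk3, Kcnip2 and Kcng2 stand at the top, at means of 85.6, 75.3 and 49.97 TPM, and the hearts lie close together except among the low members, such as Kcna4 (0.46 and 0.89 TPM).

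Among voltage-gated pore-forming genes, the highest was Kcng2 (ENSMUSG00000059852.7, chromosome 18, 80294546 to 80364254), with 47.5 and 52.4 TPM in replicates 1 and 2. It encodes Kv6.2, a silent subunit that forms no channel alone and joins other voltage-gated subunits. It ranked 993 of 21901 protein-coding genes and took 12.1% of the family's summed TPM. The other 9 silent subunit genes were all below 1 TPM in at least 1 heart, with Kcnv2 highest at 1.06 and 0.80 TPM.

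The transient outward and Kv1 genes were lower. Kcnd2 (Kv4.2), which carries the fast transient outward current, had 4.84 and 4.77 TPM, and Kcnd3 (Kv4.3) had 2.68 and 2.87. Kcnd2 was the higher of this pair in both hearts, with a log2 ratio of 0.77 ± 0.08, taken as log2 of the ratio of TPM + 0.1. The third gene of the group, Kcnd1, had 0.12 and 0.08 TPM. Kcna5 (Kv1.5, an ultrarapid delayed rectifier) had 4.28 and 4.80 TPM. Kcna4 (Kv1.4), which carries a slow transient outward current, had 0.46 and 0.89 TPM, below Kcna5 by a log2 ratio of 2.64 ± 0.47. Kcna7 stood at 1.37 and 1.31 TPM and Kcna1, best known from nerve axons, at 1.47 and 1.16.

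The rapid and slow delayed rectifier genes followed Kcng2. Kcnh2 (ENSMUSG00000038319.14, chromosome 5, 24319589 to 24351604), whose human counterpart is mutated in a form of long QT syndrome, had 20.2 and 22.3 TPM. Kcnq1 (ENSMUSG00000009545.14, chromosome 7, 143106362 to 143427042), the pore of the slow delayed rectifier, had 14.6 and 13.5 TPM. Kcnq1 was lower than Kcnh2 in both hearts, with a log2 ratio of -0.60 ± 0.18. The other 7 ether-a-go-go genes together added little, since the group summed to 20.4 and 22.5 TPM. Kcnq5, a relative of Kcnq1 known from neurons and vessels, was at 1.11 and 1.10 TPM. Kcnq1 lies over the antisense gene Kcnq1ot1. Whether the counting used the strand is not given in the sources used here, so reads of the bases they share cannot be told apart.

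The inward rectifiers were spread over 3 groups, none of which held most of the class. The ATP-sensitive pore genes summed to 40.3 ± 0.898 TPM (SD, n = 2), the G protein-gated genes to 36.7 ± 0.566 and the strong rectifiers to 24.5 ± 1.66, while 5 genes known for potassium transport in epithelia and glia summed to 0.575 ± 0.134. The highest of that last group was Kcnj15, at 0.58 and 0.42 TPM.

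Kcnj11 (ENSMUSG00000096146.2, chromosome 7, 46093953 to 46100764) encodes Kir6.2, the pore of the ATP-sensitive channel of heart muscle, and had 33.1 and 30.2 TPM. Kcnj8 encodes Kir6.1, the pore form known from vascular smooth muscle and pericytes, and had 7.85 and 9.41 TPM. Kcnj11 was higher in both hearts, with a log2 ratio of 1.87 ± 0.27. These pores need a sulfonylurea receptor, and of the receptor genes, which are not members, Abcc9 had 77.6 and 76.8 TPM and Abcc8 18.9 and 18.7. The receptors summed to 2.39 ± 0.0374 times the pore genes, and Abcc9 exceeded Abcc8 by a log2 ratio of 2.03 in each heart. Each pore gene lies beside a receptor gene: Kcnj8 is 16.2 kb from Abcc9 on chromosome 6 and Kcnj11 is 3.76 kb from Abcc8 on chromosome 7. Within each locus the pore and receptor levels did not match, since the less abundant pore gene Kcnj8 neighbours the more abundant receptor gene.

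Kcnj3 (ENSMUSG00000026824.11, chromosome 2, 55435970 to 55598145) and Kcnj5 (ENSMUSG00000032034.6, chromosome 9, 32314707 to 32344350) encode Kir3.1 and Kir3.4, which assemble as the channel that acetylcholine opens in atrial and pacemaker cells. Kcnj3 had 18.4 and 18.9 TPM and Kcnj5 had 18.0 and 18.2. Their log2 ratio, Kcnj5 over Kcnj3, was -0.05 ± 0.02, the nearest to 0 of the 17 pairs compared. In the second quantification, made separately from the reads, Kcnj3 stood higher, at 26.0 ± 1.85 against 21.6 ± 1.16 TPM, and the log2 ratio was -0.27. The other Kir3 genes, Kcnj6 and Kcnj9, known from the brain, had 0 counts in both hearts and 0 and 3 counts in the first quantification.

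Kcnj2 (ENSMUSG00000041695.2, chromosome 11, 111066164 to 111076821) encodes Kir2.1, a main carrier of the current that holds the resting potential. It had 14.3 and 16.3 TPM, above Kcnj12 (Kir2.2) at 8.65 and 9.03, with a log2 ratio of 0.78 ± 0.09. Kcnj12 in turn exceeded Kcnj4 (Kir2.3), which had 0.15 and 0.03 TPM from 10 and 2 counts, too few for a ratio that does not depend on the pseudocount.

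The two-pore class consisted almost wholly of 1 gene. Kcnk3 (ENSMUSG00000049265.7, chromosome 5, 30588170 to 30625271), which encodes the acid-sensitive leak channel TASK-1, had 81.6 and 89.6 TPM, the highest level of any member, and ranked 601 of 21901 protein-coding genes. It had 44.2 ± 7.07 times the TPM of the other 13 two-pore members together, or 32.2 ± 3.55 times in the second quantification. The next in the class was Kcnk6, at 0.92 and 0.85 TPM. Kcnk2 encodes TREK-1, a stretch-sensitive channel studied in the heart, and had 0.51 and 0.57 TPM, so that Kcnk3 exceeded it by a log2 ratio of 7.06 in each heart. The size of that ratio depends on the processing: its mean was 6.21 with posterior mean TPM and 5.81 with a pseudocount of 1. Kcnk1 lay below its relative Kcnk6, at 0.14 and 0.05 TPM from 7 and 2 counts. The related acid-sensitive genes Kcnk9 and Kcnk15 had at most 1 count.

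The calcium-activated class was low. The small-conductance (SK) channel gene Kcnn2 had 4.58 and 4.75 TPM and Kcnn1 2.93 and 3.06, while Kcnn3 stayed below the threshold at 0.78 and 0.83. Kcnn2 exceeded Kcnn1 by a log2 ratio of 0.62 ± 0.01 and Kcnn3 by 2.40 ± 0.02. The big-conductance (BK) channel gene Kcnma1 had 0.15 and 0.16 TPM, from 18 and 24 counts. The highest of the class below the threshold was Kcnt2, a sodium-activated relative, at 0.99 and 0.94 TPM.

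Accessory subunits ranged from the second highest member to none. Kcnip2 (ENSMUSG00000025221.15, chromosome 19, 45791839 to 45816061), which encodes KChIP2, the calcium-binding subunit of Kv4 channels, had 77.2 and 73.4 TPM. It had 9.94 ± 0.468 times (SD, n = 2) the summed TPM of the pore genes it serves, Kcnd2 and Kcnd3, and 9.53 ± 0.532 times in the second quantification. Its relatives were low, with Kcnip1 at 0 and 2 counts, Kcnip4 at 2 and 3, and Kcnip3 at 0.60 and 0.39 TPM. The other kind of Kv4 subunit was near 0, with Dpp6 at 0.01 TPM in each heart and Dpp10 listed at 0. In the second quantification their means were 0.0325 and 0.0687 TPM. The genes Irx3, Irx5 and Etv1, known regulators of Kv4 genes in the heart wall or conduction system, were all at 1 TPM or more. So were 49.8% of all protein-coding genes.

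Kcne1, the small subunit that slows Kcnq1 channels, had 12.4 and 14.4 TPM, from 416 and 522 counts. Its ratio to Kcnq1 was 0.847 in replicate 1 and 1.06 in replicate 2, so neither gene was higher in both hearts. In the second quantification it was 0.702 and 0.866, with Kcnq1 the higher in both hearts, so the order depends on the quantification. Kcne2, which can join Kcnh2 or Kcnq1, had 0 counts in both hearts and in both quantifications, although it lies 47.9 kb from Kcne1 on chromosome 16. The remaining members of that group, Kcne3, Kcne4 and Kcne1l, were below 1 TPM. Of the Kv beta subunits, Kcnab1 had 1.29 and 0.86 TPM and Kcnab2 0.73 and 0.75. Their log2 ratio of 0.46 ± 0.40 turned to -0.61 with posterior mean TPM, so their order is not settled by these data. The BK beta subunit Kcnmb1 had 0.28 and 0.25 TPM, above its pore gene Kcnma1 by a small margin (log2 ratio of Kcnma1 over Kcnmb1 -0.52 ± 0.12). That order also turned with posterior mean TPM, to 1.09. None of 4 BK gamma genes reached 1 TPM.

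The ratios of Kcne1 to Kcnq1, of Kcnip2 to the Kv4 genes, of the receptors to the Kir6 genes and of Kcnk3 to its class were chosen after the values were seen. The 17 pairs compared, most of them given above, were fixed by hand. In 17 of 17 cases they kept 1 order in both hearts with a mean larger than the SD. No share over other pairs of genes was taken, so this count is not a result particular to these pairs. Because 2 hearts allow no p below 0.5 in an exact sign-flip test, none is given.

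**Figure D2:**
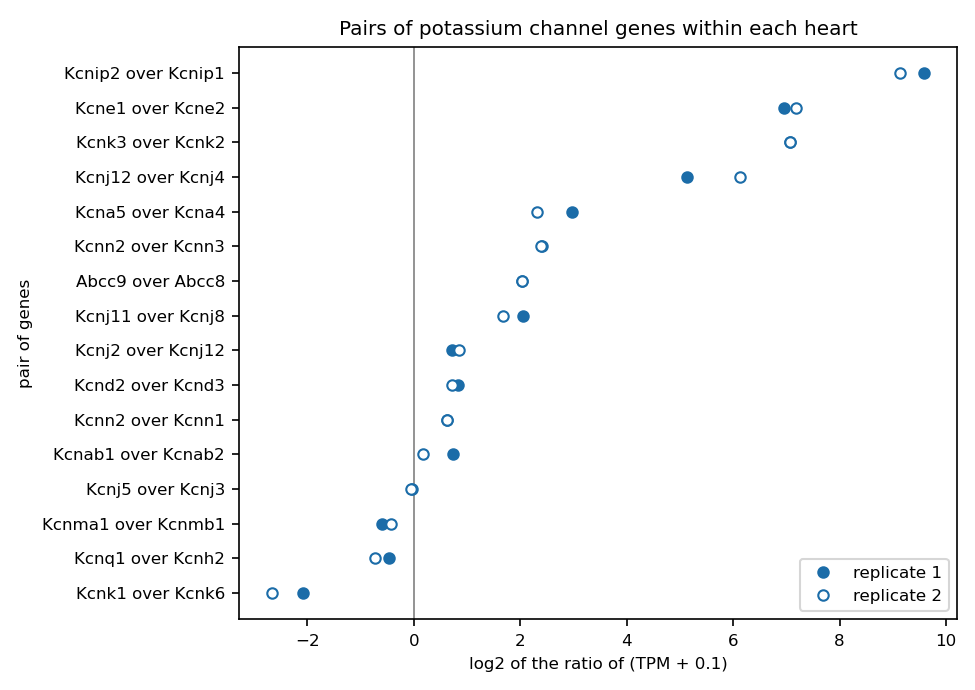
Log2 ratio of TPM + 0.1 for 16 of the 17 pairs of genes, with filled points for replicate 1 and open points for replicate 2. Kcnj5 over Kcnj3 lies nearest to 0. The 4 pairs with Kcnip1, Kcne2, Kcnj4 or Kcnk1 are set by the pseudocount, since these genes had 3 counts or fewer in at least 1 heart (Kcnip2 over Kcnip1 is 9.37 as drawn, and 6.23 with a pseudocount of 1), so only the side of 0 can be read for them.

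When the 21 members were ordered by mean TPM, 5 of the 20 neighbours in the order had hearts whose values overlapped and so were not separated. Among these were Kcnq1 and Kcne1, Kcnj12 and Kcnj8, Kcnn2 and Kcna5, and Kcna7 and Kcna1. Of the 21, 11 were at 10 TPM or more in both hearts and 10 lay from 1 to under 10.

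Members that neighbour one another in the genome, within 200 kb, differed widely in level in some cases and were both low in others. Of the 94 members, 71 were under 1 TPM in both hearts, and neighbours were not set against pairs of other genes. Kcnj2, at 15.3 TPM (mean), lies 38.2 kb from Kcnj16, at 0.010, on chromosome 11. Kcnj5, at 18.1 TPM, lies 28.1 kb from Kcnj1, with no count in the first quantification, on chromosome 9. In the Kv1 cluster on chromosome 6, Kcna5 had 4.54 TPM, Kcna1 1.31 and Kcna6 0.43. In the Kv1 cluster on chromosome 3, Kcna3 had 0.165, Kcna2 0.59 and Kcna10 none. Kcnj9 and Kcnj10 on chromosome 1 and Kcnk5 and Kcnk16 on chromosome 14 were all below 1 TPM. Kcnmb1 lies within Kcnip1 on chromosome 11, on the other strand.

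Of the 21 members, 4 (Kcnj2, Kcnd2, Kcna5 and Kcna7) have 1 annotated transcript and 17 have more. In 15 of the 17, the same transcript led in both hearts, against 88.3% of protein-coding genes with more than 1 transcript at the same level. Kcnq5 was an exception, with Kcnq5-201 leading in replicate 1 and Kcnq5-206 in replicate 2. In 15 of the 17 the leading transcript held over 50% of the gene's TPM in both hearts, against 64.3%. In the second quantification it did so in 13 of the 17. The leading transcript was the same over both hearts and both quantifications in 15 of the 17. In Kcnj3, Kcnj5 and Kcne1 the 2 main transcripts have the same coding sequence, so their split has no effect on the protein.

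In Kcnip2, Kcnh2 and Kcnd3 the transcripts differ in protein. The bases that set them apart are given here from the coding strand, because they show which stretch each form gains or lacks. For Kcnh2 the start codon is in capitals and the sequence runs from it to the end of its exon.
Kcnip2, exon of 96 bases, chr19:45797091-45797186, minus strand: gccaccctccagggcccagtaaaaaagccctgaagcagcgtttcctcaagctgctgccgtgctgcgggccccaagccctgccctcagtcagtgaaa
Kcnip2, exon of 54 bases, chr19:45796279-45796332, minus strand: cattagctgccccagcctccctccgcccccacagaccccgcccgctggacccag
Kcnd3, exon of 57 bases, chr3:105666962-105667018, plus strand: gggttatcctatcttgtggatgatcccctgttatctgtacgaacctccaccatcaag
Kcnh2-201, first coding exon, chr5:24351208-24351283, minus strand: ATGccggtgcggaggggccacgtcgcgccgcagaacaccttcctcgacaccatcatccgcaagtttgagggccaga
Kcnh2-202, first coding exon, chr5:24329165-24329272, minus strand: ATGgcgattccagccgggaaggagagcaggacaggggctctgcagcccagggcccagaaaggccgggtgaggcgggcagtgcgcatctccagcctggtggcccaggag
The 96-base exon of Kcnip2 adds 32 codons and the 54-base exon adds 18. Kcnip2-202 (252 residues), which has the first of them, held 52.4% and 58.1% of the gene's TPM in replicates 1 and 2. Kcnip2-209 (270 residues), with both, held 31.3% and 24.8%. Kcnip2-208 (220 residues), with neither, held 12.5% and 13.3%, but 4.73% and 1.73e-07% in the second quantification. Transcripts with the 96-base exon held 83.3% ± 0.622 in all, and 84.0% ± 1.60 in the second quantification, so most Kcnip2 TPM carried it in both. The 54-base exon was in 28.1% ± 4.61 and, in the second quantification, 35.3% ± 3.37.

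Kcnh2-201 encodes the longer ERG1 protein (1162 residues) and held 60.3% and 53.4% of the gene's TPM. Kcnh2-202 starts at its own first exon, gives 820 residues and held 24.8% and 28.7%. The shorter protein, known as ERG1b, lacks the long amino-terminal domain that slows closing of the channel. The longer form led in both hearts in both quantifications. The 57-base exon of Kcnd3 codes for 19 residues of the intracellular part after the last membrane segment. It was in 15.3% ± 5.61 of Kcnd3 TPM, and Kcnd3-202 (636 residues, without it) held 74.8% and 72.5%.

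**Figure D3:**
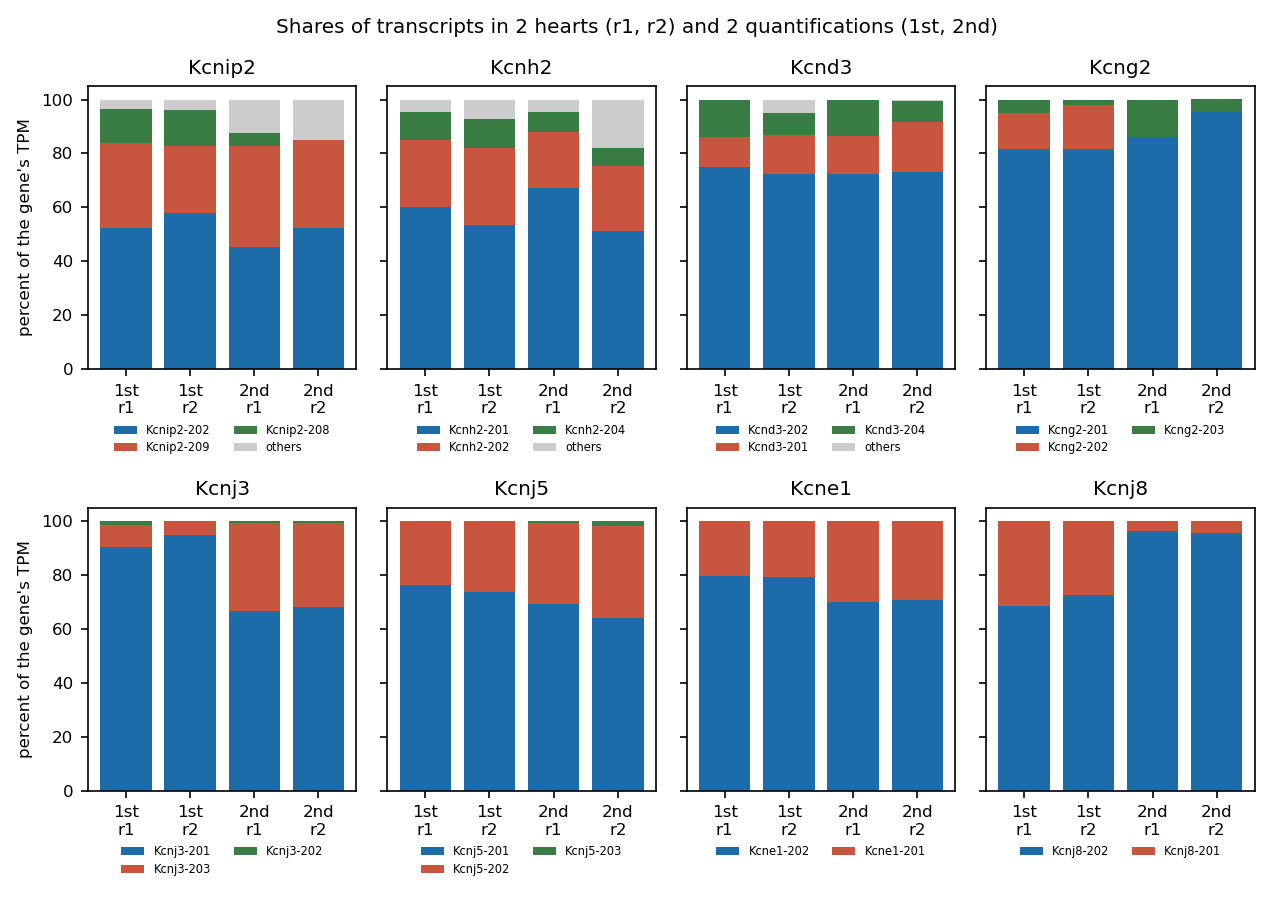
Share of each gene's TPM held by its transcripts, in percent, in the first (1st) and second (2nd) quantification and in replicates 1 (r1) and 2 (r2), for 8 members. Each bar stacks up to 3 leading transcripts, with all others in grey. Kcnip2-202, Kcnh2-201 and Kcnd3-202 hold the largest share of their gene in all 4 bars, and the shares of Kcnj3 and Kcnj8 move more between quantifications than between hearts.

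The second quantification gave higher TPM than the first for all 26 members that reached 1 TPM in either, by a median of 1.17 times, where the median protein-coding gene was 1.22 times higher. The smallest ratio was 1.02 times, in Kcne1. No member differed by 4-fold or more, against 1.01% of protein-coding genes, and 3, with Kcnab2 and Kcnq5 among them, differed by 1.5-fold or more, against 17.0%.

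Between the hearts, 34 members passed a filter of a mean of 1 CPM and 60 had too few counts to be compared. None of the 34 differed by 2-fold or more, where 1.2% of the 12908 genes compared did (0.294% higher in replicate 2 and 0.906% higher in replicate 1). With 1 library per animal these ratios have no replicate test, and their intervals cover counting error only. The members' median log2 ratio, replicate 2 over replicate 1, was 0.0084, and that of all genes was 0.0093. The median absolute log2 ratio was 0.12 in both sets. Above 0 were 19 members and below 0 were 15, against 52.2% of all genes above 0. With scaling to the spike-ins, the median of all genes moved to -0.14 and that of the members to -0.14, with 6 members above 0 and 28 below, so no direction can be given for the family as a whole.

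The largest ratio was that of Kcna4, the only member to differ by 1.5-fold or more, where 4.52% of genes did. It had 68 and 115 counts, a log2 ratio of 0.62 (95% interval 0.17 to 1.07). The lowest was that of Kcnv2, with 174 and 140 counts and -0.45 (-0.78 to -0.12). Among the members at 10 TPM or more, the log2 ratios lay between -0.16 for Kcnq1 and 0.19 for Kcne1. The counting interval lay above 0 in 5 members (Kcnk3, Kcng2, Kcnj2, Kcnj8 and Kcna4) and below 0 in 4 (Kcnip2, Kcnq1, Kcna1 and Kcnv2). For Kcnip2 the log2 ratio was -0.13 (-0.18 to -0.07), and for Kcnk3 it was 0.08 (0.04 to 0.13). Some of these signs depend on the scaling: with spike-ins, those of Kcnk3 and Kcng2 turned and the others listed kept theirs. The intervals of Kcng2, Kcnj2 and Kcnj8 then included 0. With spike-in scaling the interval lay above 0 in 1 member (Kcna4, 0.47) and below 0 in 13, the ratio of Kcnk3 turned to -0.06 (-0.10 to -0.02), and that of Kcnip2 was -0.27 (-0.33 to -0.21).

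Kcnj8 had 606 and 785 counts and a log2 ratio of 0.23 (0.08 to 0.39), or 0.09 (-0.06 to 0.25) with spike-in scaling. All 5 pericyte markers were at 1 TPM or more, with no marker at 0, and they summed to 114.3 and 131.3 TPM in replicates 1 and 2. The 5 smooth muscle markers summed to 151.9 and 177.5 TPM. Of them, Acta2 and Smtn were higher in replicate 2, and Tagln, Myh11 and Cnn1 were lower. The part of either cell type in the ratio of Kcnj8 was not tested. Kcna1 had 184 and 151 counts and a log2 ratio of -0.42 (-0.74 to -0.11), or -0.57 (-0.89 to -0.25) with spike-in scaling. Of the 7 neuron and Schwann cell markers, 2 were at 1 TPM or more in both hearts and no marker was at 0 in both. The neuronal genes Snap25 and Th were at or below 0.2. The part of these cells in the ratio of Kcna1 was not tested.

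**Figure D4:**
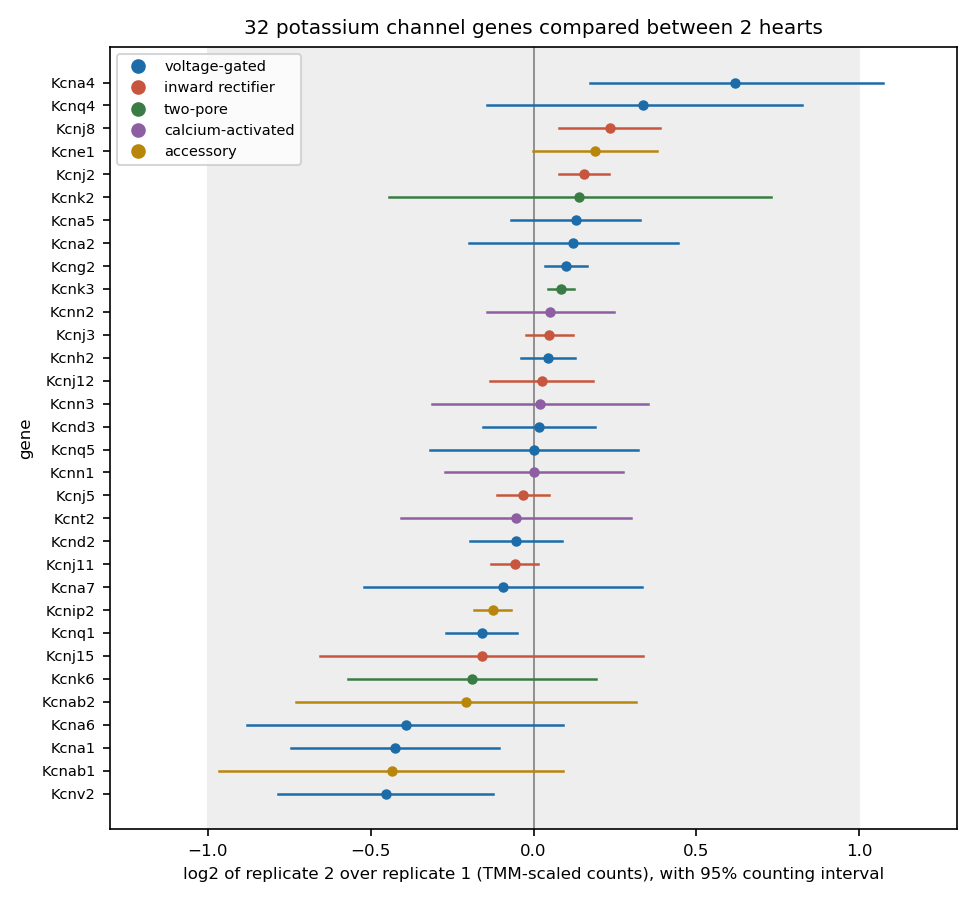
Log2 ratio of replicate 2 over replicate 1 (counts scaled by TMM) for 32 of the 34 members compared, with 95% counting intervals as bars and colours for the classes. The grey band spans 2-fold in either direction, and all 32 points lie inside it, with Kcna4 highest and Kcnv2 lowest.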

How the data were processed

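Total RNA of 2 mouse hearts was measured as 1 library each. Estimated counts and TPM (maximum likelihood and posterior mean) per gene, and each transcript's percent of its gene, were deposited by the authors in gene and transcript tables. Texts deposited beside the tables say that they come from a transcriptome alignment. A second transcript table, derived directly from a read file, holds estimated counts and TPM deposited by the authors, summed here per gene. Those texts name the mm10 assembly and GENCODE M21. The tools, their versions and the use of strand were not given in the sources used here.

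Members were found by symbol and protein_coding transcript in GENCODE M21, whose coordinates and transcript sequences were used. The members and lists were chosen with earlier results of these data known. Named are all members at 1 TPM or more in both hearts, the highest of each class below that, members without counts, members of 17 pairs fixed by hand, members within 200 kb of another, and members past the fold limits. A member outside this rule that carries a value (for example Kcnd1 or Kcnip3) was named after its values were seen. Some genes and sequences are not reported here, though the counts over all members include them.

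Levels are TPM per heart, mean ± SD (n = 2). The labels give both hearts 1 donor identifier, so the SD may be technical in part. The 26248 transfer RNA rows (3.0 and 1.85 counts) and the spike-ins were left out of library sizes. For ratios between hearts, counts were rounded, scaled by TMM (edgeR 4.0.16, R 4.3.3), filtered at a mean of 1 CPM and given exact binomial 95% intervals. The reads carry no molecular identifiers, so these intervals, and the limits for a count of 0, cover counting error only. The step was tested on simulated counts. Alternatives were posterior mean TPM, the second quantification, protein-coding transcripts alone, other thresholds, pseudocounts, filters and scalings (DESeq2 1.42.0 size factors, totals, spike-ins) and leaving out each heart. Other tools were Python 3.11.15 with pandas 2.3.3, numpy 2.4.6 and scipy 1.17.1, and matplotlib 3.10.9 for figures.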

Additional observations from a re-analysis of the deposited data

Results flagged for a closer look

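Genes of the Kcn name that code for no protein are outside the 94 members, and 2 of them, both antisense to a member, had counts above the limit that a count of 0 allows. Kcnd3os, which overlaps the start of Kcnd3, had 0.29 TPM (mean of both hearts), from 6 and 9 counts. Kcnq1ot1, the long antisense RNA within Kcnq1, had 0.295 TPM, from 916 and 959 counts, and 0.445 TPM in the second quantification. Whether the counting used the strand is not given in the sources used here. Reads of the bases that either gene shares with its member therefore cannot be told apart, and some of these counts may belong to the member. No sample of the series can serve as a control for these 2 genes.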

How the results depend on the processing

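The number of members at 1 TPM or more in both hearts was 21, and 37 when TPM was rescaled to the nuclear protein-coding genes alone, which held 37.8% and 36.7% of TPM. It was 30 at 0.5 TPM and 18 at 2 TPM, lay between 20 and 25 with the other TPM estimates, and leaving out each heart gave 21 and 23. The inward rectifier share of 24.7% was 24.4% with posterior mean TPM, 26.0% in the second quantification and 25.8% with protein-coding transcripts alone, which also put the two-pore share at 20.1%. The calcium-activated share of 2.44% was 2.93%, 2.50% and 2.17% under the same 3 alternatives. Of the 17 pairs, 16 or 17 had the same order in both hearts under each alternative, which need not be the order given above. With 1 heart left out, any ratio other than 0 counts as ordered, so that count of 17 tests nothing. Kcnab1 over Kcnab2 turned to -0.61 with posterior mean TPM and -0.48 with protein-coding transcripts alone, and Kcnma1 over Kcnmb1 turned to 1.09 with posterior mean TPM. The cause was not tested. The ratios over genes near 0 move with the pseudocount (1 and 0.01 TPM in place of 0.1): Kcnip2 over Kcnip1 from 6.23 to 11.88, Kcne1 over Kcne2 from 3.84 to 10.38, Kcnj12 over Kcnj4 from 3.18 to 6.79 and Kcnk1 over Kcnk6 from -0.78 to -3.24. The members' median log2 ratio between hearts turned to -0.14 with spike-in scaling and to -0.055 with no filter. Members 2-fold apart numbered 0, and 10 of 66 with no filter (above 3 counts in a heart), where 8.87% of all genes were. The 10 all had 11 counts or fewer in each heart. At 1.5-fold, 1 member was called. Members with the same leading transcript numbered 15 of 17, 23 of 25 at 0.5 TPM and 11 of 12 at 5 TPM. No paired analysis was possible because there is 1 group. Depth limits what can be said of the 60 members under 1 CPM.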

Other observations

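In some members, short annotated transcripts received abundance in the first quantification and little or none in the second. Kcng2-202 (279 bases) held 13.2% and 16.2% of Kcng2 TPM in the first and 0 in the second, and Kcnn1-206 (613 bases) held 13.2% and 16.8% of Kcnn1 and then 0. Other short transcripts rose instead. Kcng2-203 (616 bases) went from 5.03% and 2.14% to 13.85% and 4.59%, and Kcnip2-206 (519 bases) from 0 to 4.65% and 9.22%. In Kcnj3, Kcnj3-203 held 8.48% and 5.21% in the first and 32.7% and 31.3% in the second. In Kcnj8, Kcnj8-201 went the other way, from 31.4% and 27.6% to 3.75% and 4.39%. The gene totals of these members differed between quantifications by no more than 1.40 times.

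The RNA of genes whose proteins anchor or traffic potassium channels was measured in both hearts, and no protein was assayed. All 7 scaffold and anchor genes examined and all 4 trafficking genes were at 1 TPM or more in both. Of all protein-coding genes, 49.8% reached that level, and these genes were picked by hand, so the counts are no result particular to them. The anchor Ank2 was at 109.7 ± 3.65 TPM (SD, n = 2), the caveolar gene Cav3 at 40.1 ± 4.16 and Akap9, which binds Kcnq1, at 17.4 ± 2.79.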
